A study of Mus musculus with 5 samples.

Results

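The 5 BTG and TOB genes Btg1, Btg2, Btg3, Tob1 and Tob2 were followed in sorted mouse pancreatic cancer cells. They were found by exact symbol, each in 1 row, among the 52459 rows of the deposited expression table. The family was selected on its measured FPKM values in the 2 sorted populations, so the differences of its members below describe these 5 libraries and carry no test. The cells were of the HY15549 line on a C57BL/6 background, grew as organoids in Matrigel in medium with serum, and all carried the GFP-LC3-RFP reporter of autophagy flux, and were dissociated and sorted by the ratio of its green to its red signal. AThi, the autophagy-high population, had 2 libraries and ATlo, the autophagy-low population, had 3, made with a stranded mRNA kit. Both come from 1 tumour line. The series calls the libraries biological replicates without naming cultures, and p-values printed for other genes measure only the spread between these libraries.

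BTG and TOB proteins share an N-terminal domain that binds CNOT7 and CNOT8, the catalytic deadenylases of the CCR4-NOT complex, through which they speed the shortening of poly(A) tails. They slow the entry of cells into the division cycle when overexpressed, and several are known as genes of quiescent or differentiating cells. BTG1 and BTG2 are short proteins, BTG2 is also known as an immediate-early gene and a target of p53, and TOB1 and TOB2 carry a long C-terminal tail that binds the cytoplasmic poly(A)-binding protein PABPC1.

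The promoters of Btg2, Tob1 and Btg1 are shown because the first pair had the larger differences between the populations and Btg1 is the closest relative of Btg2. They are RefSeq windows on GRCm38.p6, 250 bases before to 50 after the start site, in the direction of the gene. Capitals mark the CCAAT box (CCAAT, or ATTGG on the other strand), the cAMP response element TGACGTCA, its shorter core ACGTCA, and the TATA box TATAAA. The windows are chr1:134079106-134079405 (minus strand) for Btg2, chr11:94211204-94211503 (plus strand) for Tob1 and chr10:96616751-96617050 (plus strand) for Btg1.
Btg2: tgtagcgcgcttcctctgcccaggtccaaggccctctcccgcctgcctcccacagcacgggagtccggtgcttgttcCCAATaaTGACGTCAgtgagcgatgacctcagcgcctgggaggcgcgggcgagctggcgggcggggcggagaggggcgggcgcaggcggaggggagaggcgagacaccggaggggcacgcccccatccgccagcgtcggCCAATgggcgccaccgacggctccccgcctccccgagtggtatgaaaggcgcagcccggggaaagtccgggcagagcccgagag
Tob1: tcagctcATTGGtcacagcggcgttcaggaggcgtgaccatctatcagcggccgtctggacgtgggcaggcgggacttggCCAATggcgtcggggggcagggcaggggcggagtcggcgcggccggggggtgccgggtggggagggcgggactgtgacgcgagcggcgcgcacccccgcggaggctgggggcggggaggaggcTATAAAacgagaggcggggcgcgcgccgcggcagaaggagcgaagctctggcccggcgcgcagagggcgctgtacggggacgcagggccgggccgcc
Btg1: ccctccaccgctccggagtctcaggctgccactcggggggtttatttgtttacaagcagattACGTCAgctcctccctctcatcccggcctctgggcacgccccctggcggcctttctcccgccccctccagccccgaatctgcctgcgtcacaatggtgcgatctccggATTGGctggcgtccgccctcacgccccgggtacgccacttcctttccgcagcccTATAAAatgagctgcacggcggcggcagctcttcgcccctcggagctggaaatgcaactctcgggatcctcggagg

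The Btg2 window held the full cAMP response element, with its first base 166 bases before the start site, and a CCAAT box 2 bases upstream of it. This element was in 1.79% of 32851 promoter windows of the same length, and no other window of the 5 genes had it. Btg1 had the core ACGTCA at position -188, which 7.51% of all windows held and which also lies inside the full element. CCAAT boxes, in 37.4% of all windows, were at positions -173 and -34 of Btg2, at -243 and -170 of Tob1 and at -80 of Btg1, and in each of the 2 windows of Btg3. The TATA box, in 13.6% of all windows, was at -47 of Tob1 and -26 of Btg1. The GC box GGGCGG, in 35.7% of all windows, was in at least 1 window of each of the 5 genes, and for Tob2 it was the only one of the 9 motifs found. The AP-1 motif TGANTCA (7.81% of all windows), the E-box CACGTG (7.15%), the CArG box of SRF (1.63%) and the full p53 site (0.00913%) had no match in the 6 windows of the family. The p53 site was searched as an exact consensus, with no spacer and no mismatch. Only 3 of the 32851 windows held it, so its absence here says nothing about p53 binding. The motifs were chosen with these promoters in view, both strands were searched, and a match is a run of letters, not evidence of a bound factor.

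Btg2 was the most abundant of the 5 genes in 4 of the 5 libraries. Its level was 336 and 517 FPKM (fragments per kilobase, relative to the depth of the library) in the AThi libraries and 89.1, 105 and 45.6 FPKM in the ATlo libraries. Both AThi libraries lay far above all ATlo libraries. AThi averaged 427 ± 128 FPKM (SD, n = 2), against 79.9 ± 30.7 FPKM (SD, n = 3) for ATlo, a log2 difference of 2.46 ± 0.35 (SE) on the log2(FPKM + 0.5) scale used for all differences here. In these bulk libraries fewer cells of a type and less RNA per cell cannot be told apart. Toward AThi, 8 of the 11397 genes tested had a larger log2 difference. Btg2 lies on chromosome 1 (134075170 to 134079120, minus strand, GRCm38, GENCODE M21) and has 2 exons.

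Btg2 was also the least steady of the family within a population. Its highest library was 1.54 times its lowest in AThi and 2.30 times in ATlo. The within-group SD on the log2 scale was 0.57, larger than that of 98.9% of tested genes, and larger than that of 98.5% of the 274 tested genes whose mean level was within 2-fold of it. Its values stand for 4900 to 63756 reads at the depths read from the table. In ATlo replicate 3 Btg2 fell below Tob1, the only library in which the order of the 2 genes was turned.

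Tob1, the second most abundant member, was at 112 and 125 FPKM in AThi and at 69.7, 72.2 and 60.8 FPKM in ATlo. The groups did not overlap. The means were 118 ± 9.14 FPKM (SD, n = 2) and 67.5 ± 6.00 FPKM (SD, n = 3), and the log2 difference was 0.81 ± 0.09 (SE). Its within-group SD of 0.12 on the log2 scale exceeded that of 68.2% of tested genes. Tob1 is on chromosome 11 (94211454 to 94215495, plus strand) and has 2 exons.

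Btg1 and Tob2 differed little between the populations. Btg1 was at 32.2 and 31.0 FPKM in AThi and at 28.5, 29.7 and 28.2 FPKM in ATlo, with a log2 difference of 0.13 ± 0.06 (SE). The lowest AThi library stood only just above the highest ATlo library. Its within-group SD was 0.04 on the log2 scale, and only 8.40% of tested genes had a smaller one. Tob2 was at 21.8 and 21.5 FPKM in AThi and at 19.3, 18.8 and 17.2 FPKM in ATlo, with a log2 difference of 0.23 ± 0.07 (SE). These groups did not overlap either. Btg1 is on chromosome 10 (96617006 to 96622809, plus strand) and Tob2 on chromosome 15 (81848272 to 81858796, minus strand).

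**Figure D1:**
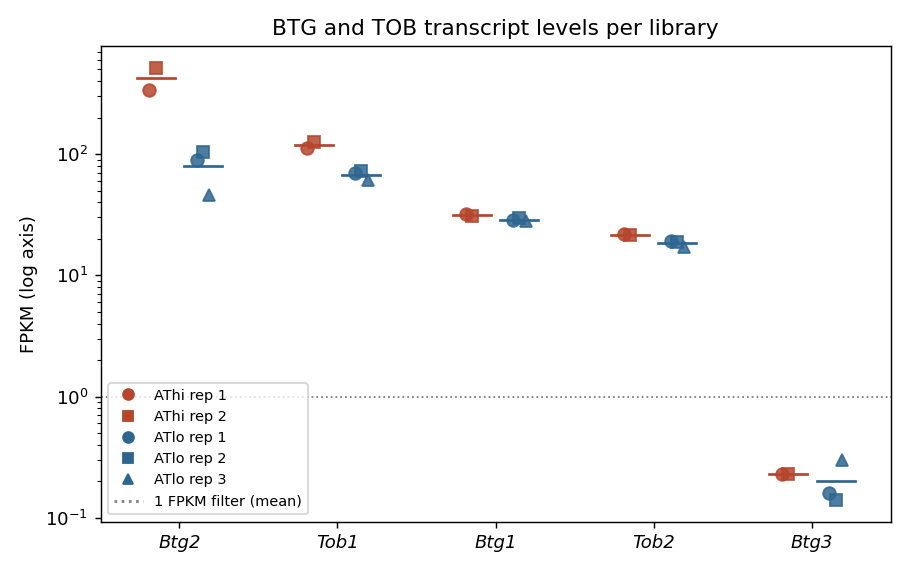
Level of each gene in FPKM on a log axis, with 1 point per library (AThi red, ATlo blue, the marker shape giving the replicate number), a bar at the group mean and a dotted line at 1 FPKM, the minimum mean for testing. Btg2 shows the widest gap between the populations, those of Btg1 and Tob2 are narrow, and Btg3, whose groups overlap, lies below the line in all 5 libraries.

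Btg3 was barely detected. It was at 0.23 FPKM in both AThi libraries and at 0.16, 0.14 and 0.30 FPKM in the ATlo libraries, which overlapped those of AThi on both sides. With the exon length of GENCODE M21 these values stand for 20 to 47 reads, against a floor of 3 reads at 0.0166 to 0.0271 FPKM. The exact Poisson 95% intervals, which cover counting error only, were 0.0846 to 0.214 FPKM in ATlo replicate 2 and 0.220 to 0.398 FPKM in ATlo replicate 3. The mean of 0.212 FPKM over the 5 libraries was below the minimum of 1 FPKM, so Btg3 was not tested. Btg3 lies on chromosome 16 (78332637 to 78377192, minus strand).

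The low level of Btg3 is uncertain, since part of its sequence is not unique. The processed pseudogene Gm7334 on chromosome 17 (50698688 to 50699443 in GENCODE M21) shares 707 of the 1365 windows of 50 bases in the Btg3 transcript of 1414 bases, or 51.8%, without a mismatch. RefSeq gives the pseudogene a span of 1368 bases, close to the length of that transcript. Of the other Btg3 transcripts, the one of 442 bases shared 92.1% of its windows with Gm7334 and the longest, of 3013 bases, 13.1%. How much of the level this affects was not tested. The sources used here do not say whether reads with several matches were counted, and Gm7334 itself was at 0 to 0.09 FPKM. A further 695 bases of the annotated Btg3 exons, or 17.3%, lie across exons of Cxadr, a receptor gene on the opposite strand that was at 38.2 to 60.9 FPKM. Neither limit touched Btg2 or Tob1, for which no 50-base window occurred in a transcript of another gene. In the main Btg1 transcript, of 5001 bases, the share was 2.63%, all with the pseudogene Gm14519, which was at 0 in 4 libraries and at 0.08 FPKM in ATlo replicate 1. In the Tob2 transcript of 4151 bases, 3.90% of the windows matched an antisense transcript.

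The other rows of the family were close to 0. Btg4, the member known from oocytes, was at 0.03 FPKM in both AThi libraries and between 0 and 0.09 FPKM in ATlo. Btg1-ps1 was listed at 0 in all 5 libraries, and Btg1-ps2 at 0.02 FPKM in AThi replicate 2 and at 0 in the others.

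The make-up of the family differed between the populations. The summed FPKM of the 5 genes was 503 and 695 in AThi and 207, 226 and 152 in ATlo. Btg2 made up 66.9% and 74.4% of the sum in AThi and 43.1%, 46.5% and 30.0% in ATlo. Tob1 held 22.3% and 17.96% in AThi and 33.7%, 32.0% and 40.0% in ATlo. By mean level over the 5 libraries Btg2 exceeded 98.9% of tested genes, Tob1 96.0%, Btg1 83.8% and Tob2 74.4%. Without Btg2 the sum was 166 and 178 FPKM in AThi and 106 to 121 FPKM in ATlo. Tob1 was 5.12 and 5.80 times as high as its relative Tob2 in AThi and 3.53 to 3.84 times in ATlo. Against its closest relative Btg1, Btg2 was 10.4 and 16.7 times as high in AThi and 1.62 to 3.54 times as high in ATlo.

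**Figure D2:**
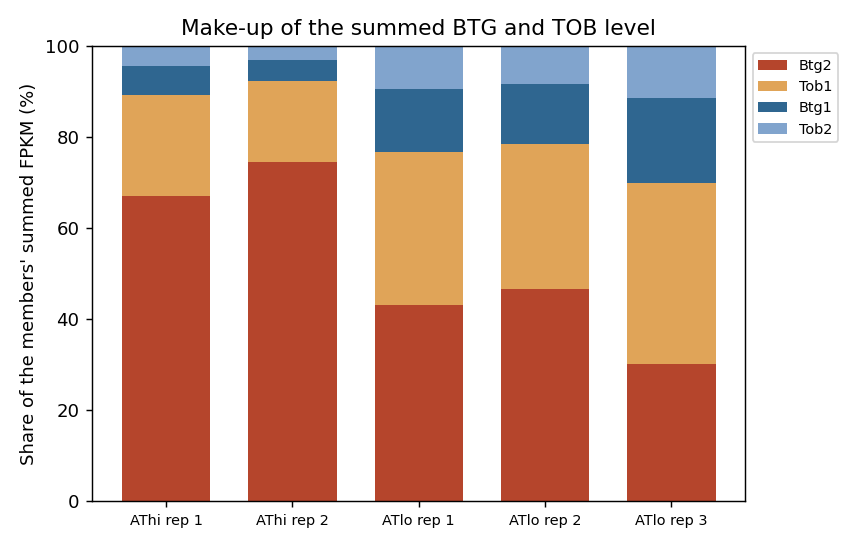
Share of each gene in the summed FPKM of the family, in percent, with 1 bar per library (Btg3, at under 0.2% in each, is not visible). Btg2 takes 66.9% and 74.4% of the AThi bars and 30.0% to 46.5% of the ATlo bars.

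In the fit across all genes, 4 of the 5 members were tested and 3 of them, Btg2, Tob1 and Tob2, lay past the threshold of an adjusted p under 0.05, all higher in AThi. Over all tested genes 51.6% passed, 22.2% higher and 29.4% lower in AThi, a balance that turned to 3039 higher and 2903 lower genes with libraries set to an equal median. Both AThi libraries lay above all ATlo libraries in 4 of the 4 tested members and in 31.9% of all tested genes, and 70.3% did not overlap in either direction. As the choice of the genes used this contrast, nothing is read from these counts. Tob2 missed the threshold when low genes were left in the fit or a replicate term was added. Among the fits that kept both AThi libraries, it also missed it without ATlo replicate 2 and without ATlo replicate 3. Its log2 difference was between 0.18 and 0.26 with a library left out. Btg1 was past the threshold in 2 alternative fits that rescaled the libraries. Since these fits reuse the contrast the genes were chosen on, they lend its differences no support.

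The genes whose levels followed each member most closely over the 5 libraries were found by the root mean square difference of centred log2 values among 11393 genes. For Btg2 they were Atf3, a stress-induced transcription factor gene (difference 0.18), Egr3, an immediate-early zinc finger factor gene (0.21), and Dusp1, which encodes a MAP kinase phosphatase (0.27). Atf3 was at 252 and 418 FPKM in AThi and at 87.2, 93.4 and 47.8 FPKM in ATlo, the same order of libraries as Btg2. For Tob1 they were Zfp36l2, which encodes an RNA-binding protein that recruits CCR4-NOT to AU-rich mRNAs (0.03), 2010001A14Rik (0.04) and Hivep1 (0.04), a zinc finger factor gene. Zfp36l2 was at 223 and 249 FPKM in AThi and at 147, 150 and 125 FPKM in ATlo. The measure spans both populations, so it includes the contrast on which the family was chosen. A gene near Btg2 or Tob1 must have a difference of like size, and its nearness adds no support.

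For Btg1 the nearest genes were Atg10, an enzyme gene of autophagosome formation, Helz and Copa, a coatomer subunit gene, each within 0.02. For Tob2 they were Rps3, a ribosomal protein gene whose values are uncertain through its copies, Bsdc1 and Tjp3, a tight junction gene, each within 0.02. Both members vary little, so small differences from many genes are built into this measure. Among the members themselves Btg1 and Tob2 were closest (0.07), and Btg2 was 0.88 from Tob1.

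**Figure D3:**
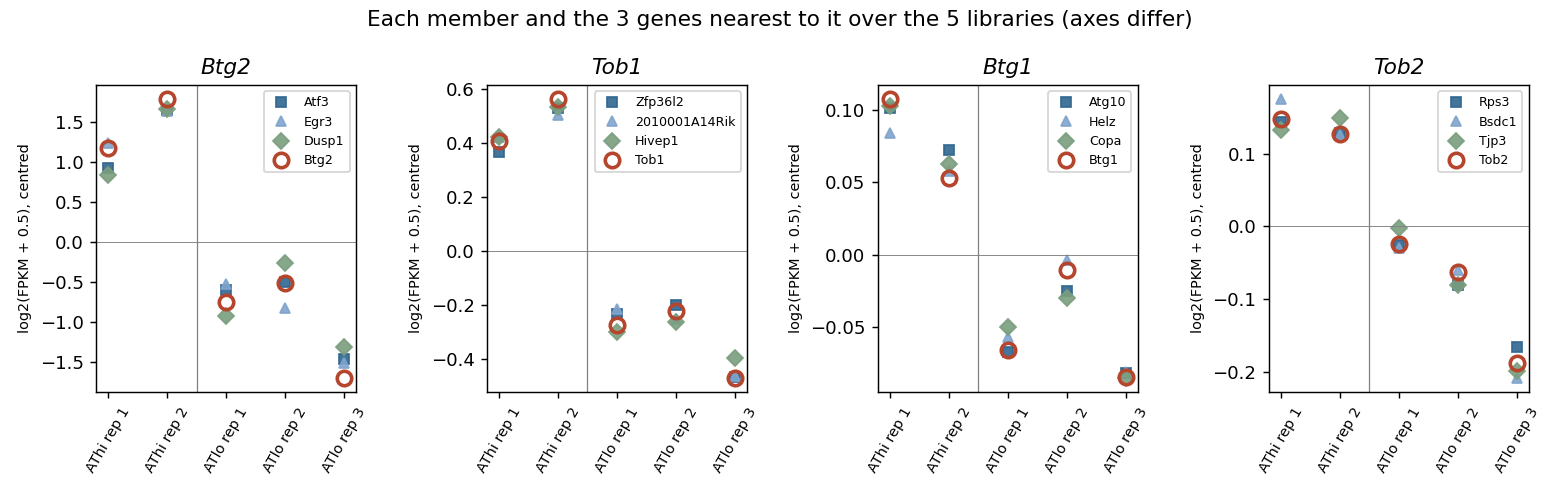
Centred log2(FPKM + 0.5) in each of the 5 libraries for Btg2, Tob1, Btg1 and Tob2 (open red circles) and the 3 genes nearest to each (filled markers), with a vertical line between AThi and ATlo and a different axis range in each panel. All 4 members are lowest in ATlo replicate 3. Btg2 and Tob1 are higher in AThi replicate 2 than in replicate 1, while Btg1 and Tob2 are not.

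The libraries within a population gave a view that does not rest on the contrast. Btg2 and Tob1 had the same order in both populations, with AThi replicate 2 above replicate 1, and ATlo replicate 2 above replicate 1 and that above replicate 3. Over all tested genes 6.62% had this order. Of the 24 genes of the immediate-early and cell handling list, from which Btg2 was left out, 16 had it, or 66.7%, and 23 were higher in AThi replicate 2 than in replicate 1, with a median ratio of 1.54, equal to that of Btg2. The median ratio over all tested genes was 0.99. This order was looked for after the values of Btg2 had been seen. Deviations of same-numbered libraries from their group means correlated at 0.20 and 0.30 across genes. The order in the 2 populations, and in the genes that share it, is therefore not a set of separate observations.

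In the contrast, 17 of the 24 genes of that list were higher in AThi and 2 lower, 5 missed the threshold, and the median log2 difference was 1.26 against -0.03 over all tested genes. Genes past the threshold made up 79.2% of the list, against 51.6% of all tested genes. The summed level of the list was 4415 and 6925 FPKM in AThi and 2267, 2855 and 1965 FPKM in ATlo. Egr3 rose by 2.39 ± 0.27 (SE), with an adjusted p of 0.000581, and Egr2 by 2.34 ± 0.17 (SE), with an adjusted p of 0.000101. Atf3 and Dusp1 rose by 2.15 and 2.08. The chaperone genes of the list were mixed. Hsph1 and Hspa8 changed by -0.79 and -0.35, Dnajb1 rose by 1.01, and Hspa1a and Hspa1b missed the threshold (adjusted p 0.212 and 0.614). Genes of this list respond to growth signals or to the dissociation of cells. The 17 that rose moved in the direction of Btg2 and Tob1, and their part in the levels of both was not tested.

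In the CCR4-NOT complex, through which BTG and TOB proteins act, 41.7% of the 12 tested genes passed, against 51.6% of all tested genes. Over all tested genes 29.4% were lower and 22.2% higher in AThi, so no shift of the complex is read from its counts. The falls numbered 4 and the rises 1, 7 genes missed the threshold, and the median log2 difference was -0.10. Cnot7, a catalytic subunit and direct partner of the family, was at 25.3 and 24.4 FPKM in AThi and at 22.6, 23.3 and 27.9 FPKM in ATlo (adjusted p 0.875). These values overlapped. Cnot8, its paralog, had a log2 difference of 0.04 ± 0.07 (SE, adjusted p 0.630) and the scaffold gene Cnot1 one of -0.08 ± 0.08 (SE, adjusted p 0.416).

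Cnot9, a subunit that binds silencing proteins, showed the largest fall of the complex, from 22.0, 23.8 and 24.2 FPKM in ATlo to 15.9 and 15.1 FPKM in AThi, a log2 difference of -0.57 ± 0.07 (SE, adjusted p 0.000683). Cnot6, a second type of deadenylase subunit, changed by -0.33 ± 0.09 (SE, adjusted p 0.0168), while its paralog Cnot6l had a log2 difference of -0.12 and an adjusted p of 0.383. Cnot3 and Cnot11 changed by -0.29 and -0.24, and Tnks1bp1, whose product is associated with the complex, rose by 0.25. Only the call of Cnot9 held in all 5 fits that lacked a library. The number of calls was 2 without AThi replicate 1 and 3 without AThi replicate 2 or ATlo replicate 2.

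Among 12 other deadenylases and poly(A)-binding protein genes, 2 rose and 1 fell, 9 missed the threshold, and the median was 0.06. This made 25% past the threshold, against 51.6% of all tested genes. The deadenylase gene Parn rose by 0.28, a call lost without AThi replicate 2. Angel2, another deadenylase gene, passed with a difference of 0.19 over all libraries, but passed in 0 of the 5 fits that lacked one and not with a replicate term. Pabpc4, a cytoplasmic poly(A)-binding protein gene, changed by -0.40 ± 0.06 (SE, adjusted p 0.00225). Pabpc1, the partner of the TOB tail, was at 190 and 170 FPKM in AThi and at 213, 208 and 195 FPKM in ATlo, did not overlap and did not pass (adjusted p 0.0888). The list had 1 call, that of Pabpc4, without AThi replicate 2.

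Genes that bring CCR4-NOT to its targets by other routes mostly rose. Of 14 tested recruiters 9 rose and none fell, 5 missed the threshold, and the median log2 difference was 0.44. Thus 64.3% passed, all higher in AThi. Over all tested genes 51.6% passed, with 22.2% higher in AThi. The rises among the recruiters were led by the ZFP36 family, which binds AU-rich elements. Zfp36 was at 187 and 280 FPKM in AThi and at 78.4, 90.6 and 46.2 FPKM in ATlo, a log2 difference of 1.72 ± 0.29 (SE, adjusted p 0.00300), and it belongs to the immediate-early list as well. Zfp36l1 rose by 1.48 ± 0.08 (SE, adjusted p 5.66e-05) and Zfp36l2 by 0.75 ± 0.10 (SE, adjusted p 0.00120). Each of the 3 had the order of libraries of Btg2 and Tob1. Ago2, an Argonaute gene of the microRNA pathway, rose by 0.64 ± 0.09 (SE, adjusted p 0.00151), from 9.53, 11.4 and 11.5 FPKM in ATlo to 16.6 and 17.5 FPKM in AThi.

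Of the 12 genes of decapping and 5′ decay, which follow deadenylation, 4 fell and 1 rose, 7 missed the threshold, and the median was -0.04. The share past the threshold was 41.7%, against 51.6% of all tested genes. Dcp1b rose by 0.55, and Lsm1, Lsm14b, Xrn2 and Patl1 changed by -0.48, -0.36, -0.22 and -0.22. The list had 2 calls without AThi replicate 2 and 3 without ATlo replicate 2, and 3 when the libraries were set to an equal median, a setting under which the calls of Xrn2 and Patl1 were lost.

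**Figure D4:**
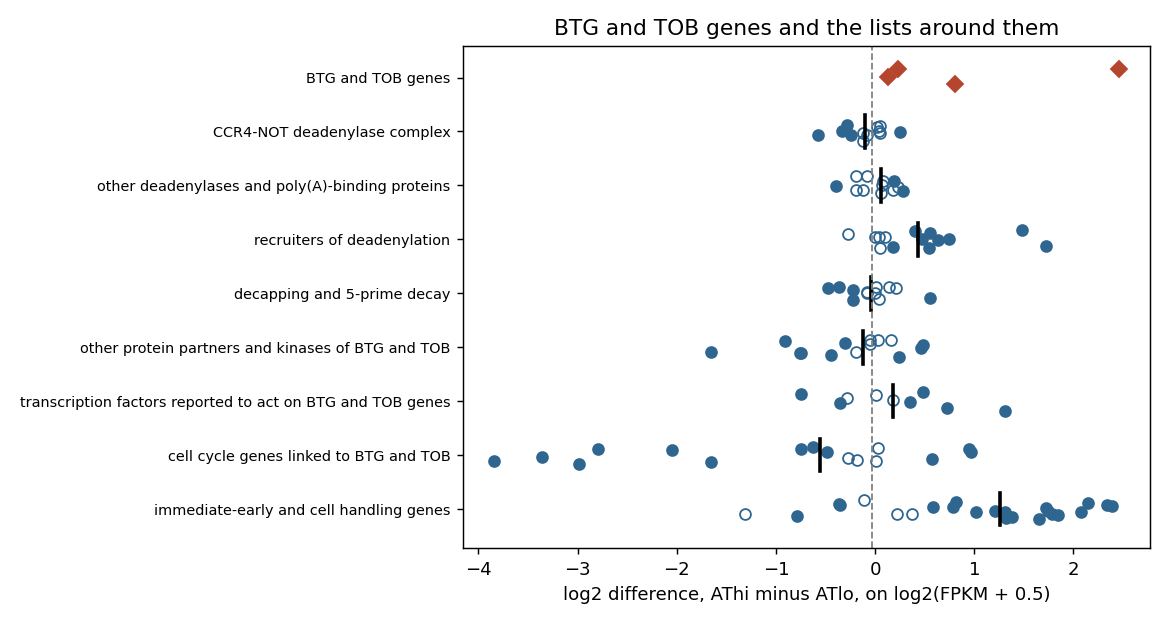
Log2 difference of the 4 tested BTG and TOB genes (red diamonds, shown with no test) and of the tested genes of each list (circles, filled where the adjusted p was under 0.05), with a bar at each list's median and a dashed line at the median of all tested genes, -0.03. The CCR4-NOT genes lie around the line, and the recruiters and immediate-early genes lie mostly to its right, toward AThi.

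Of 14 tested genes for other partners and kinases of the family, 6 fell and 3 rose, 5 missed the threshold, and the median was -0.12. Their share past the threshold was 64.3%, against 51.6% of all tested genes. Prmt1, an arginine methyltransferase gene whose product binds BTG1 and BTG2, was at 26.6 and 26.7 FPKM in AThi and at 45.6, 45.1 and 45.7 FPKM in ATlo. The groups lay far apart, with a log2 difference of -0.76 ± 0.06 (SE, adjusted p 0.000106). Chek1, a checkpoint kinase gene linked to BTG3, changed by -1.66 ± 0.12 (SE), Skp2, a ubiquitin ligase subunit gene linked to the turnover of TOB1, by -0.91 ± 0.11 (SE) and E2f1 by -0.74 ± 0.07 (SE). Chek1 was low, at 0.81 and 0.73 FPKM in AThi and at 3.29, 3.33 and 3.93 FPKM in ATlo. Foxo1 rose by 0.49 ± 0.08 (SE), Erbb2, the receptor gene for which TOB was named, by 0.46 ± 0.08 (SE), and Mapk3, a kinase gene of the ERK pathway, by 0.24 ± 0.07 (SE). The call of Mapk3 was kept in 1 of the 5 fits with a library left out, the fit without ATlo replicate 1.

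Among 9 tested genes for transcription factors that have been linked to BTG and TOB promoters, 4 rose and 2 fell, 3 missed the threshold, and the median was 0.18. Passing genes made up 66.7% of the list, against 51.6% of all tested genes. Of the 9 factor genes, E2f1 and Foxo1 are also counted among the partners, and Egr1 in the immediate-early list. Egr1 was at 437 and 645 FPKM in AThi and at 212, 251 and 183 FPKM in ATlo, with a log2 difference of 1.31 ± 0.19 (SE, adjusted p 0.00149), in the order of libraries of Btg2. Foxo3 rose by 0.73 and Foxo4 by 0.35, the latter not past the threshold without AThi replicate 1, and Nfkb1 changed by -0.35. Trp53, named after its values were seen because Btg2 is known as a p53 target, was at 1.13 and 1.45 FPKM in AThi and at 1.18, 1.47 and 1.19 FPKM in ATlo (adjusted p 0.975).

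The cell cycle genes linked to the family mostly fell. Of 16 tested genes 9 fell and 3 rose, 4 missed the threshold, and the median log2 difference was -0.56. In all, 75% passed. Over all tested genes 51.6% passed, with 29.4% lower and 22.2% higher in AThi. The falls in this list include E2f1 and Chek1, which are also counted among the partners, so the lists are not separate observations. Foxm1, which drives mitotic genes, was at 1.75 and 1.96 FPKM in AThi and at 15.8, 17.9 and 20.9 FPKM in ATlo, and Ccnb1, a mitotic cyclin gene, changed by -2.79 ± 0.19 (SE, adjusted p 8.62e-05). Ccnb1 was at only 0.32 and 0.35 FPKM in AThi, and reached the minimum mean of 1 FPKM through ATlo, at 4.15, 5.14 and 6.84 FPKM. Ccna2 and Mki67 changed by -3.84 and -3.35. The 3 that rose were Ccnd2, a G1 cyclin gene, at 0.94 ± 0.09 (SE), the CDK inhibitor gene Cdkn1a at 0.96 ± 0.25 (SE) and Rbl2, a pocket protein gene of quiescent cells, at 0.57 ± 0.06 (SE). Cdkn1a did not pass without AThi replicate 2, with no filter on low values or with robust moderation.

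Implied depths were 27.6 to 44.9 M reads. Of 8 epithelial markers 7 were above 1 FPKM on average, with summed levels of 3555 to 4213 FPKM in AThi and 3822 to 4500 FPKM in ATlo, and Cldn4 was at 0 to 0.15 FPKM. Markers of lymphoid and myeloid cells, which express Btg1 and Btg2 strongly, summed to 0.05 to 0.16 FPKM over 10 genes, with 4 at 0 throughout. The 7 fibroblast and 6 endothelial markers summed to at most 0.17 and 0.10 FPKM. Of 8 acinar and endocrine markers 7 were at 0 in all libraries, and Cela1 was at 10.2 to 12.9 FPKM.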

How the data were processed

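Messenger RNA of 2 AThi and 3 ATlo libraries was measured by RNA sequencing with a stranded kit, per the labels' protocols. The authors deposited 1 table of FPKM values, rounded to 2 decimals. Per the submitters' processing notes, bcl2fastq, STAR, featureCounts and DESeq2 were used with mm10 or GRCm38, with no versions or roles given. The annotation, the strand setting and the handling of reads with several matches are not stated in these sources.

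The 11397 genes averaging 1 FPKM or more were fitted with limma 3.58.1 in R 4.3.3 (lmFit, eBayes with trend, two-sided) on log2(FPKM + 0.5) with group as the only term, 3 residual degrees of freedom and Benjamini-Hochberg adjustment over all of them. This scale understates changes of low genes. The family and the gene lists were chosen with earlier results of these data known. From each list up to 4 genes per direction with the largest differences past the threshold were named, plus direct partners and, per member, the 3 nearest genes.

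Depth was read from single-exon genes of up to 200 nucleotides, in which the product of FPKM and length is a multiple of the value of 1 read (tolerance 0.1 of a read). GENCODE M21 lengths gave whole reads in all 5 libraries for 97.9% of 1773 genes of 601 to 1000 nucleotides. Transcript windows of 50 bases were compared on both strands with the GENCODE M21 transcripts of all genes other than the 5 members, so sharing among the members was not examined. Promoters came from RefSeq, and all 5 symbols matched. Alternatives changed the pseudocount, filter, scaling and moderation, added a replicate term or left out a library.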

Additional observations from a re-analysis of the deposited data

How the results depend on the processing

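Over 13 alternative fits the log2 difference of each tested member kept its sign. It ranged from 2.10 to 2.77 for Btg2, from 0.73 to 0.88 for Tob1, from 0.18 to 0.28 for Tob2 and from 0.11 to 0.19 for Btg1, whose 0.19 came with libraries set to an equal median. With a minimum mean of 5 FPKM fewer genes were tested and 1683 instead of 2529 genes were higher in AThi. Against 2529 higher and 3355 lower genes as reported, an equal median gave 3039 and 2903, and TPM rescaling, with 13570 genes tested, 3138 and 3186. Both shifted the median of all tested genes by 0.06. With no filter on low values the CCR4-NOT list had 3 calls instead of 5. With an equal median the decapping list had 3 instead of 5. With 1 library left out, calls ranged from 2 to 5 in the CCR4-NOT list, from 1 to 2 among other deadenylases (3 with all libraries) and from 2 to 5 in the decapping list, and from 1694 to 2483 among genes higher in AThi. The cause was not tested. A lone AThi library in such a fit is assumed to vary like ATlo.

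Replicates 1 and 2 of both groups share numbers, and the codes in their titles share a leading part, but no label says what a number or code marks. Deviations from the group means correlated at 0.20 and 0.30 across genes for the same-numbered pairs. With the replicate block, in which ATlo replicate 3 has no partner and adds nothing to the difference, 2579 genes were higher and 3330 lower in AThi, and the log2 difference was 2.10 for Btg2, 0.73 for Tob1, 0.12 for Btg1 and 0.18 for Tob2, the last no longer past the threshold. Tests on raw counts were not run, since the table holds FPKM.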
